A study of Mus musculus with 3 samples.

Results

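The Notch receptors, their ligands of the Jagged and Delta-like classes and the fringe gene Lfng were described across 3 populations sorted from mouse embryonic stem cells after differentiation. The 10 genes were taken by symbol from the deposited table of 39179 genes, and all 10 were found: 4 receptors (Notch1, Notch2, Notch3, Notch4), 5 ligands (Jag1, Jag2, Dll1, Dll3, Dll4) and Lfng. The cells came from 1 embryonic stem cell line that carried an eGFP reporter of contactin 2 (Cntn2, a surface protein used to mark Purkinje fibre cells of the heart) and a lentiviral mCherry reporter named for the alpha myosin heavy chain (Myh6, a gene of heart muscle). Sodium nitroprusside, which releases nitric oxide, was added on day 4 of differentiation to the cells behind all 3 populations, and sorting followed after 25 days of differentiation. The populations were Cntn2:eGFP-positive cells with dim mCherry (GFP), mCherry-positive cells (MHC) and cells negative for both reporters (NEG). No culture without nitroprusside was analysed here, so the effect of the agent cannot be told apart from differentiation. Each population had 1 library, so there is no replicate error and no p-value below.

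In Notch signalling a ligand on 1 cell binds a receptor on its neighbour, which exposes the receptor to cleavage first by an ADAM protease and then by gamma-secretase. The freed intracellular part of the receptor enters the nucleus, joins the DNA-binding protein RBPJ and a Mastermind protein, and activates genes of the Hes and Hey families. Fringe enzymes such as Lfng add sugar to the receptors and shift which class of ligand they respond to. In the mouse heart the pathway is known for roles in the endocardium, the valves, the trabeculae, the coronary vessels and the epicardium, and in the conduction system forced Notch activation has been used to turn heart muscle cells towards a conduction phenotype.

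The promoters of 3 receptors are shown because Notch1 and Notch3 were both lower in GFP while Notch2 was not, and that of Lfng because it was the only member promoter with the RBPJ motif searched for. Each runs 5′ to 3′ on the gene's strand, from 250 bases before to 50 bases after a RefSeq start site, build GRCm38.p6. The positions are chr2:26503773-26504072 on the minus strand for Notch1, chr17:32166841-32167140 on the minus strand for Notch3, chr3:98013288-98013587 on the plus strand for Notch2 and chr5:140607091-140607390 on the plus strand for Lfng. Capitals mark the core of the RBPJ motif, TGGGAA, or TTCCCA where it lies on the other strand.
Notch1: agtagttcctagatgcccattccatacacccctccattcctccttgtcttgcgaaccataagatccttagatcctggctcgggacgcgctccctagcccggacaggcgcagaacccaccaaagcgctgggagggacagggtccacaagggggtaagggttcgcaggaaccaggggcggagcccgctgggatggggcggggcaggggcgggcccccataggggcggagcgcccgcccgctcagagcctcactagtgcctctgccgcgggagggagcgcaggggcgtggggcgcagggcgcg
Notch3: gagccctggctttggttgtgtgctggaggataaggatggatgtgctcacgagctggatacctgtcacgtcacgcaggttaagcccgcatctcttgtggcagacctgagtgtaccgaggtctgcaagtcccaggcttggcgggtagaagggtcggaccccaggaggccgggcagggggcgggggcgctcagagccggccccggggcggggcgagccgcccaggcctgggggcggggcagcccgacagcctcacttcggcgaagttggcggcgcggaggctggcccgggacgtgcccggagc
Notch2: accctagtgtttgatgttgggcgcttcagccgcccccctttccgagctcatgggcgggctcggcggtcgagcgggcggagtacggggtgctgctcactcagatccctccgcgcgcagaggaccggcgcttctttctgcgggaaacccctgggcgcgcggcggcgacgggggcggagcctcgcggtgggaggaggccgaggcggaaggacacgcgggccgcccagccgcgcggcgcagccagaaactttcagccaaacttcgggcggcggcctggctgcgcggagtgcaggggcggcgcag
Lfng: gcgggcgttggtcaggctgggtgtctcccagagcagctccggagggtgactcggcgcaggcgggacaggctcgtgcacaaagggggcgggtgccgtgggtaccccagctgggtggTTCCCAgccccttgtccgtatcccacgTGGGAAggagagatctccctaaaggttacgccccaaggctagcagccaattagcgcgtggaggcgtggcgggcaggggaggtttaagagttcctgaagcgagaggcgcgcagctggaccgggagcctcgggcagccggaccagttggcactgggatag
The motif was searched on both strands in the 11 promoters of the 10 members (Dll1 has a pair). It was found in 1 of them, that of Lfng, which holds it in opposite directions starting 135 and 108 bases before the start site. Of all 32851 mouse promoters in the same set, 25.6% held the motif and 3.79% held it at 2 or more places. The absence of these letters from the other windows says nothing about binding of RBPJ to those genes. The GC content was 68.3% for Notch1, 70.0% for Notch3, 73.0% for Notch2 and 66.7% for Lfng, against a median of 52.7% over all promoters. All 4 lay above that median, the receptors that were lower in GFP and Notch2 alike. The RefSeq start site of Notch1 lies inside the span that the deposited table gives the gene.

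Values are read counts per gene divided by 1 size factor per library, called normalised counts. Whole reads could be recovered from them and numbered 52109065 in GFP cells, 52826956 in MHC cells and 47289405 in NEG cells. A 95% interval of a fold comes from these reads and covers counting error only. A gene counted as higher or lower when log2(value + 1) differed by 2-fold or more and its larger value was at least 20, which describes size only and tests nothing.

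Between GFP and MHC no member passed the size rule upwards, although Notch2 was 1.69-fold and Notch4 1.73-fold higher in GFP. Of the 9 members that could be counted, 4 were lower in GFP (Notch1, Notch3, Dll1 and Dll4), 0 were higher and 5 lay within 2-fold, while Dll3 was too low. Over all genes, 16.4% were lower by the same rule and 15.6% were higher. The median log2 ratio of the 10 members was −0.58, against −0.0013 over all 22235 genes with a mean of 10 or more. Between GFP and NEG, 5 of 9 members were lower (Notch1, Notch3, Jag1, Jag2 and Dll1), 1 was higher (Lfng) and 3 lay within 2-fold, with Dll4 too low to count. The background there was 15% lower and 14.1% higher, and the member median was −1.02 against 0.0076 over all genes. Between MHC and NEG, 2 of 10 members were lower (Notch4 and Jag2), 0 were higher and 8 lay within 2-fold. The background was 5.21% lower and 5.35% higher, and the member median was −0.34 against −0.01. The comparisons of GFP with MHC and with NEG share the GFP library. The members were chosen with earlier results of these data known, so their counts describe them and are no evidence that the family stands apart.

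**Figure D1:**
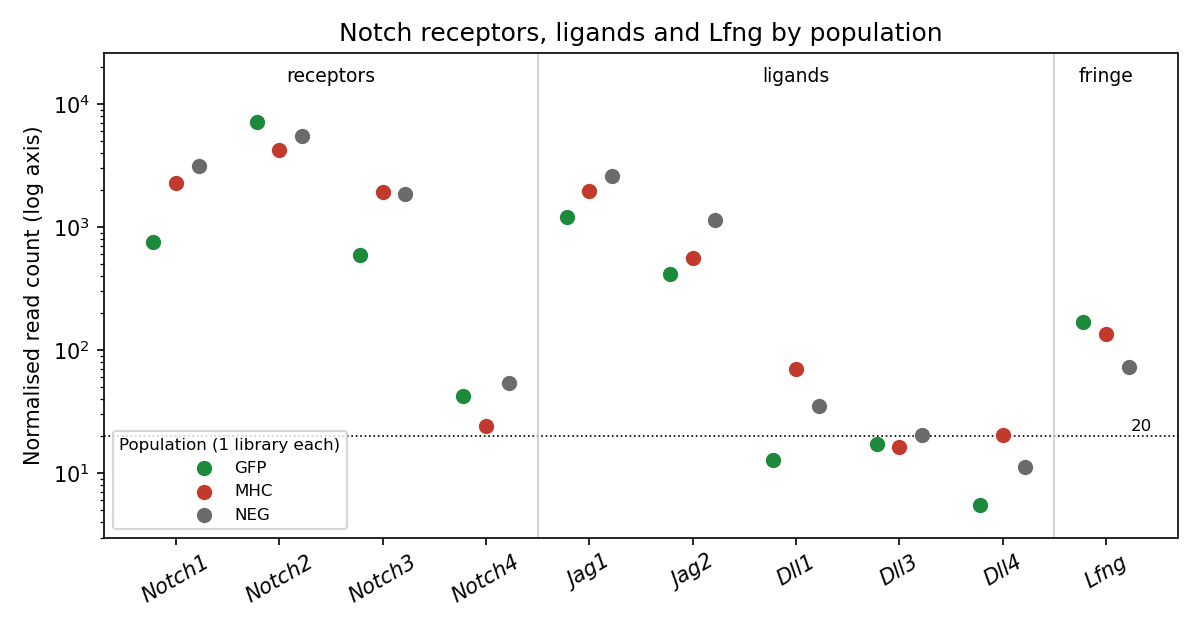
Normalised read count (log axis) of each of the 10 genes in the GFP, MHC and NEG libraries, 1 point per library, with a dotted line at a value of 20. The GFP points of Notch1 (750) and Notch3 (596) lie below both others.

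Among the receptors, Notch1, needed in the mouse for arteries and for the endocardium, showed the largest difference between GFP and NEG. Notch1 (ENSMUSG00000026923, chr2:26457903-26516663, build mm10 as for all spans here, minus strand by GENCODE, protein-coding) had a normalised count of 750 in GFP cells, 2295 in MHC cells and 3110 in NEG cells. GFP was the low library, and MHC lay nearer to NEG. The level in GFP was 3.06-fold lower than in MHC (95% interval 2.82 to 3.32) and 4.14-fold lower than in NEG (95% interval 3.83 to 4.49). Between MHC and NEG it was 1.35-fold lower in MHC (95% interval 1.28 to 1.43), within 2-fold. RNA genes that overlap the 3′ end of Notch1 have whole values of up to 20.5% of its own. The RNA gene with that value shares only 1488 bases with Notch1. With all reads of overlapping genes taken away, which can remove more than the shared reads, Notch1 was still 3.19-fold lower in GFP than in MHC.

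Notch3, the receptor of vascular smooth muscle and pericytes, was lower in GFP by a similar factor against both other populations. Notch3 (ENSMUSG00000038146, chr17:32120820-32166880, minus strand, protein-coding) had a normalised count of 596 in GFP cells, 1937 in MHC cells and 1874 in NEG cells. MHC and NEG were nearly equal and GFP stood below both. It was 3.25-fold lower in GFP than in MHC (95% interval 2.97 to 3.56) and 3.14-fold lower than in NEG (95% interval 2.87 to 3.45). The long non-coding RNA gene Gm17276, on the opposite strand, overlaps 21020 bases of Notch3 and extends beyond it. The whole value of Gm17276 is 52.3% of that of Notch3 in GFP cells, 55.9% in MHC cells and 55.5% in NEG cells. Notch3 is therefore uncertain. With every read of Gm17276 taken from Notch3, at least 284 remained in GFP cells, 855 in MHC cells and 834 in NEG cells, still 3.01-fold lower in GFP than in MHC and 2.93-fold lower than in NEG. The listed smooth muscle and pericyte markers differed in the same direction: 10 of 11 were lower in GFP than in MHC and 9 of 11 lower than in NEG. Their summed value was 21023 in GFP cells, 87951 in MHC cells and 104513 in NEG cells, and none was at 0. Their part in the Notch3 values was not tested. In sorted bulk RNA, fewer cells that carry a transcript and less of it per cell cannot be told apart.

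Notch2, a receptor broadly made in mesenchyme and developing muscle of vessels, was the member with the most reads and did not share the low level in GFP. Notch2 (ENSMUSG00000027878, chr3:98013538-98150367, plus strand, protein-coding) had a normalised count of 7167 in GFP cells, 4232 in MHC cells and 5505 in NEG cells. GFP was the high library and MHC the low one. It was 1.69-fold higher in GFP than in MHC (95% interval 1.63 to 1.76) and 1.30-fold higher than in NEG (95% interval 1.26 to 1.35), so it stayed within 2-fold in both. Between MHC and NEG it was 1.30-fold lower in MHC (95% interval 1.25 to 1.36). No gene with reads overlaps Notch2 in the table.

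Notch4, the receptor mainly of endothelial cells, was low throughout. Notch4 (ENSMUSG00000015468, chr17:34564268-34588503, plus strand, protein-coding) had a normalised count of 42.0 in GFP cells, 24.3 in MHC cells and 54.2 in NEG cells, from 46, 24 and 48 reads. NEG was the highest and MHC the lowest. The ratio of GFP to MHC was 1.73 (95% interval 1.03 to 2.96) and of GFP to NEG 0.775 (95% interval 0.506 to 1.19). MHC was 2.23-fold lower than NEG (95% interval 1.34 to 3.81), although a pseudocount of 10 put it within 2-fold (log2 ratio −0.90). The overlapping pseudogene Gm20462 holds up to 45.8% of the value, in MHC, so Notch4 is uncertain. With its reads taken away Notch4 was 2.78-fold higher in GFP than in MHC and 4.12-fold lower in MHC than in NEG. The 12 endothelial markers went both ways: of 8 that could be counted, 2 were higher and 4 lower in GFP than in MHC, and 1 was higher and 5 lower than in NEG. Egfl7 had a value of 1231 in GFP cells, 582 in MHC cells and 569 in NEG cells, while the receptor gene Flt1 had 40.2 in GFP cells, 2370.2 in MHC cells and 1174 in NEG cells. The junction gene Cdh5 had a value of 5.48 in GFP cells, 9.12 in MHC cells and 9.04 in NEG cells. The endothelial factor gene Sox17 had 2.74 in GFP cells, 1.01 in MHC cells and 0 in NEG cells, where 0 reads allow a value of up to 3.39. Of the 12, 7 in GFP cells, 8 in MHC cells and 8 in NEG cells reached a value of 20, and the list summed to a value of 2176 in GFP cells, 5425 in MHC cells and 4252 in NEG cells. The part of endothelial cells in the values of Notch4 and Dll4 was not tested.

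The summed receptor value of GFP was close to that of MHC, but its make-up differed. The 4 receptors summed to a normalised count of 8556 in GFP cells, 8488 in MHC cells and 10543 in NEG cells. The ratio was 1.01 (95% interval 0.979 to 1.04) for GFP over MHC, and 0.811 (95% interval 0.788 to 0.835) for GFP over NEG. Scaling by the total over all genes put the ratio of GFP to MHC at 1.13 and taking away reads of overlapping genes put it at 1.16. Notch2 made up 83.8% (95% Wilson interval 83.0 to 84.5) of receptor reads in GFP, 49.9% (48.8 to 50.9) in MHC and 52.2% (51.2 to 53.2) in NEG. Notch1 made up 8.77% in GFP cells, 27.0% in MHC cells and 29.5% in NEG cells, and Notch3 6.97% in GFP cells, 22.8% in MHC cells and 17.8% in NEG cells. Notch4 made up 0.491% in GFP cells, 0.286% in MHC cells and 0.514% in NEG cells. These shares lie within a library, so no scaling between libraries bears on them. Counted per kb of exon, the Notch2 share was 83.5% in GFP cells, 49.3% in MHC cells and 52.8% in NEG cells. Counting seems to have covered whole gene spans, and that of Notch2 is long, at 136.83 kb. Per kb of span, Notch2 led in GFP, at 52.4 against 12.9 for Notch3 and 12.8 for Notch1. In MHC, Notch2 (30.9) was below Notch3 (42.0) and Notch1 (39.1). In NEG, Notch2 (40.2) was below Notch1 (52.9) and Notch3 (40.7). With all reads of overlapping genes taken away it was 88.9% in GFP cells, 61.0% in MHC cells and 62.2% in NEG cells.

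**Figure D2:**
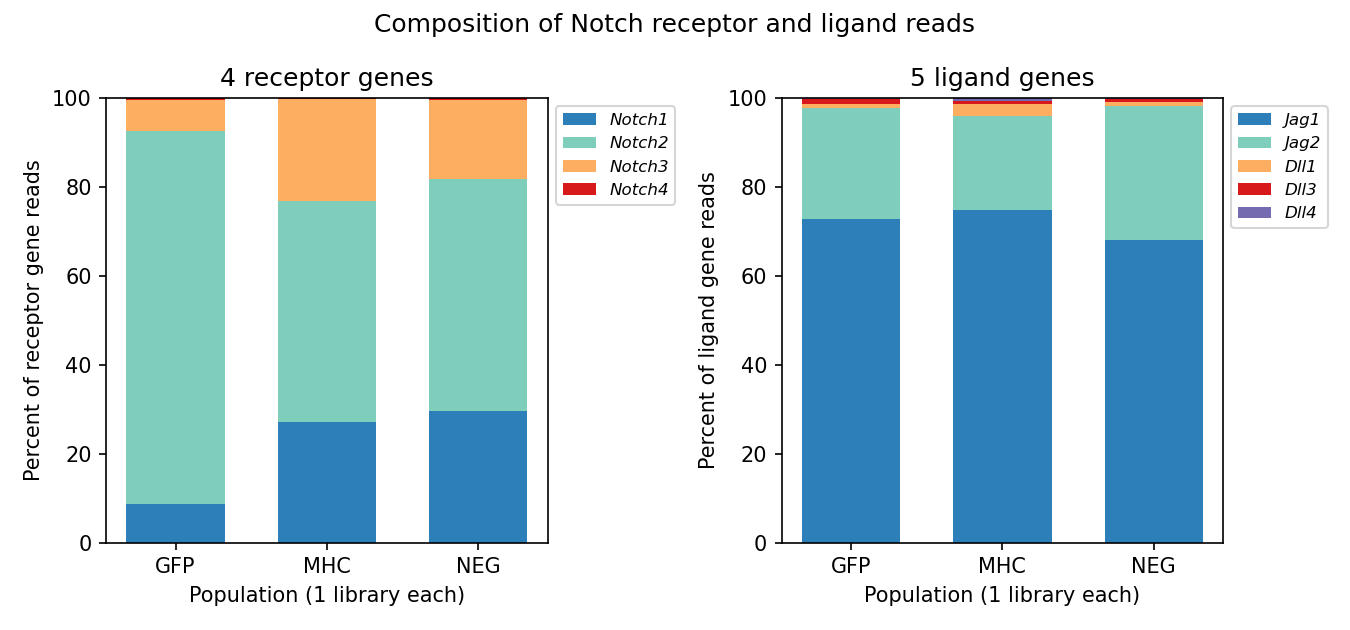
Percent of reads of the 4 receptor genes (left) and of the 5 ligand genes (right) that fall on each gene, with 1 stacked bar for each of the GFP, MHC and NEG libraries. Notch2 fills 83.8% of the receptor bar in GFP, 49.9% in MHC and 52.2% in NEG, while Jag1 fills between 68.1% and 74.8% of every ligand bar.

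Of the ligands, Jag1 and Jag2 carried nearly all reads, and both were lowest in GFP and highest in NEG. Jag1 (ENSMUSG00000027276, chr2:137081456-137116644, minus strand, protein-coding), the ligand needed for vascular smooth muscle and the outflow tract in the mouse, had a normalised count of 1203 in GFP cells, 1977 in MHC cells and 2594 in NEG cells. GFP was the low library and NEG the high one. It was 1.64-fold lower in GFP than in MHC (95% interval 1.53 to 1.76), within 2-fold, and 2.16-fold lower than in NEG (95% interval 2.01 to 2.31). Scaling by the total over all genes put the log2 ratio of GFP over NEG at −0.94, within 2-fold. Between MHC and NEG the level was 1.31-fold lower in MHC (95% interval 1.23 to 1.39).

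Jag2 (ENSMUSG00000002799, chr12:112908590-112929495, minus strand, protein-coding), the other Jagged ligand, had a normalised count of 412 in GFP cells, 560 in MHC cells and 1147 in NEG cells. Here MHC lay nearer to GFP than to NEG. It was 2.78-fold lower in GFP than in NEG (95% interval 2.49 to 3.11) and 2.05-fold lower in MHC than in NEG (95% interval 1.84 to 2.27). The ratio of GFP to MHC was 0.736 (95% interval 0.648 to 0.835), within 2-fold. A microRNA gene inside Jag2 holds at most 1.27% of its value.

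The 3 Delta-like genes were near the limit of detection, and their ratios rest on few reads. Dll1 (ENSMUSG00000014773, chr17:15367354-15376872, minus strand, protein-coding), a ligand of arteries and of the mouse somites, had 14 reads in GFP cells, 70 in MHC cells and 31 in NEG cells. These are normalised counts of 12.8 in GFP cells, 70.9 in MHC cells and 35.0 in NEG cells, so that MHC was the high library and GFP the low one. The level in GFP was 5.54-fold lower than in MHC (95% interval 3.09 to 10.7) and 2.74-fold lower than in NEG (95% interval 1.41 to 5.57). A pseudocount of 10 put GFP over NEG within 2-fold (log2 ratio −0.98). MHC had 2.02-fold (95% interval 1.31 to 3.20) the level of NEG, which at a log2(value + 1) ratio of 0.997 fell just short of the size rule. The long non-coding RNA gene A930024N18Rik, on the other strand at the start of Dll1, shares 1873 bases with it. The whole value of A930024N18Rik is 42.9% of that of Dll1 in GFP cells, 21.4% in MHC cells and 32.3% in NEG cells. Dll1 is therefore uncertain. With all reads of A930024N18Rik taken away, also those outside the shared bases, Dll1 was 7.62-fold lower in GFP than in MHC.

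Dll4 (ENSMUSG00000027314, chr2:119325784-119335962, plus strand, protein-coding), the Delta ligand of arterial endothelium, had 6 reads in GFP cells, 20 in MHC cells and 10 in NEG cells, normalised counts of 5.48 in GFP cells, 20.3 in MHC cells and 11.3 in NEG cells. As deposited, MHC was highest and GFP lowest. It was 3.69-fold lower in GFP than in MHC (95% interval 1.43 to 11.2), but within 2-fold with a pseudocount of 10 (log2 ratio −0.97). The intervals of GFP over NEG (ratio 0.485, 0.145 to 1.47) and of MHC over NEG (1.79, 0.801 to 4.29) included 1. In NEG, 60.0% of the Dll4 value is matched by the overlapping gene Gm14207, so Dll4 is uncertain too. With all reads of Gm14207 taken away, at least 5.48 remained in GFP cells, 18.2 in MHC cells and 4.52 in NEG cells. The ratio of GFP to NEG was then 1.21. Gm14207 shares only 411 bases with Dll4, and its reads outside them were taken away too. The direction of GFP over NEG is therefore not settled. Dll3 (ENSMUSG00000003436, chr7:28293553-28302238, minus strand, protein-coding), a divergent Delta gene that in the mouse acts inside the cell during somite formation, had 19 reads in GFP cells, 16 in MHC cells and 18 in NEG cells. A difference was not detectable at this depth, with a GFP to MHC ratio of 1.07 (95% interval 0.522 to 2.23) and a GFP to NEG ratio of 0.854 (0.424 to 1.73).

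Summed over the 5 ligands, the normalised count was 1651 in GFP cells, 2645 in MHC cells and 3807 in NEG cells. GFP had 0.624 (95% interval 0.588 to 0.663) of the MHC sum and 0.434 (95% interval 0.409 to 0.459) of the NEG sum, and MHC had 0.695 (95% interval 0.660 to 0.731) of the NEG sum. The make-up of the ligand reads set GFP apart from the other populations less than that of the receptor reads did. Jag1 made up 72.9% (95% Wilson interval 70.8 to 74.9) in GFP cells, 74.8% (73.1 to 76.4) in MHC cells and 68.1% (66.5 to 69.7) in NEG cells. The Jag1 intervals of GFP and of MHC lay above that of NEG. Jag2 made up 25.0% in GFP cells, 21.2% in MHC cells and 30.1% in NEG cells. Each Delta-like gene stayed at or below 2.68% in every library.

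Lfng was the member whose order ran the other way. Lfng (ENSMUSG00000029570, chr5:140607341-140615543, plus strand, protein-coding) had a normalised count of 168 in GFP cells, 136 in MHC cells and 72.3 in NEG cells. GFP was the high library and NEG the low one. It was 2.33-fold higher in GFP than in NEG (95% interval 1.74 to 3.14) and 1.88-fold higher in MHC than in NEG (95% interval 1.38 to 2.57). The ratio of GFP to MHC was 1.24 with a 95% interval, 0.986 to 1.56, that included 1. Of the other fringe genes, Rfng had a normalised count of 472 in GFP cells, 643 in MHC cells and 1048 in NEG cells, the reverse order, and was 2.22-fold lower in GFP than in NEG (95% interval 1.99 to 2.48). Mfng was under a value of 20 everywhere, with 6.40 in GFP cells, 4.05 in MHC cells and 12.4 in NEG cells. Markers of presomitic mesoderm, the mouse tissue where Lfng cycles, went both ways. Their 5 genes summed to 91.4 in GFP cells, 167 in MHC cells and 115 in NEG cells. Tbx6 had a value of 40.2 in GFP cells, 136 in MHC cells and 67.8 in NEG cells, while Mesp2 had 34.7 in GFP cells, 7.09 in MHC cells and 11.3 in NEG cells. Hes7 had 15.5 in GFP cells, 24.3 in MHC cells and 36.1 in NEG cells. Ripply2 had 0 reads in every library, which allows a value of up to 2.74 in GFP and 3.39 in NEG, and Msgn1 had a value of 0.914 in GFP and 0 in MHC and NEG.

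**Figure D3:**
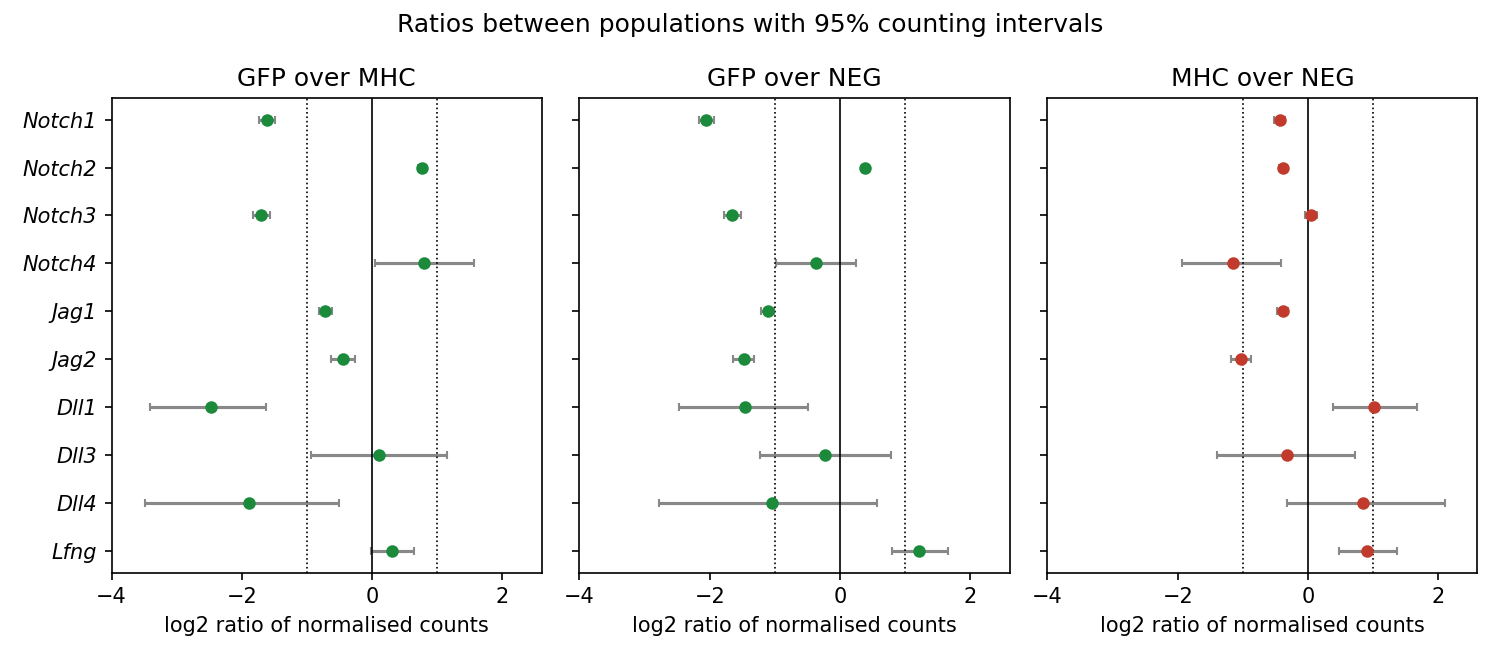
The log2 ratio of normalised counts of each member (x axis) for GFP over MHC, GFP over NEG and MHC over NEG, with bars for the 95% counting interval and dotted lines at 2-fold. Notch1 and Notch3 lie left of the 2-fold line in both GFP panels, Notch2 right of 0 in both, and the bars are wide for Notch4, Dll1, Dll3 and Dll4.

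Levels of different members were compared as normalised count per kb of exon, with the exons of GENCODE M21. On that scale Notch2 was highest and Jag1 next in every library. In GFP, Notch2 had a level of 665 per kb and Jag1 206 per kb, followed by Notch3 at 73.7, Lfng at 67.1, Jag2 at 59.2 and Notch1 at 52.7 per kb. Among these, the counting intervals of neighbours from Notch3 to Notch1 overlapped. In MHC the order was Notch2 at 392, Jag1 at 339, Notch3 at 239, Notch1 at 161, Jag2 at 80.4 and Lfng at 54.2 per kb, with no overlap between neighbours. In NEG it was Notch2 at 511, Jag1 at 445, Notch3 at 232, Notch1 at 219, Jag2 at 165 and Lfng at 28.9 per kb, where the intervals of Notch3 and Notch1 overlapped. The place of Notch3 above Notch1 is uncertain because of Gm17276. With all reads of overlapping genes taken away, Notch3 (8.089 kb of exon) kept at least 284 in GFP cells, 855 in MHC cells and 834 in NEG cells. Notch1 (14.232 kb of exon) kept at least 574 in GFP cells, 1832 in MHC cells and 2451 in NEG cells. On these remaining values, Notch1 stood above Notch3 per kb of exon in every library. Reads outside the shared bases were taken away too. Per kb of exon, Notch1 stood above Lfng and Jag2 in MHC and NEG but not in GFP, where neighbouring intervals overlapped. The Delta-like genes and Notch4 lay between 1.42 and 16.8 per kb, and most of their neighbouring intervals overlapped. Per kb of the whole gene span, introns included, the order differed. Notch2 was still highest in GFP, at 52.4 per kb of span against 34.2 for Jag1. In MHC, Jag1 (56.2), Notch3 (42.0) and Notch1 (39.1) were all above Notch2 (30.9 per kb of span). In NEG, Jag1 (73.7), Jag2 (54.8), Notch1 (52.9) and Notch3 (40.7) were above Notch2 (40.2 per kb of span), and Notch1 was below Jag2.

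The other genes of the pathway were read from 7 lists of 51 genes. Between GFP and MHC, 8 of the 48 that could be counted were higher in GFP and 7 were lower, with a median log2 ratio of 0.09. Between GFP and NEG, 9 of 48 were higher and 8 lower (median 0.02). Between MHC and NEG, 1 of 47 was higher and 1 lower (median 0.01), where 5.35% of all genes were higher and 5.21% lower. For both GFP comparisons, these counts are shares near the 14.1% to 16.4% of all genes past 2-fold in 1 direction, and most pathway genes lay within 2-fold in each comparison. The same shares of all genes stand beside the counts of each list below.

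Of 10 cleavage genes, 3 were higher in GFP than in MHC, 0 were lower and 7 lay within 2-fold, and 2 were higher than in NEG. Over all genes, 15.6% were higher in GFP than in MHC and 14.1% higher than in NEG. Psen2, a catalytic subunit of gamma-secretase, had a normalised count of 6001 in GFP cells, 542 in MHC cells and 670 in NEG cells. GFP was far above both others, 11.1-fold higher than MHC (95% interval 10.1 to 12.1) and 8.96-fold higher than NEG (95% interval 8.23 to 9.76). Nicastrin (Ncstn), the substrate-binding subunit, was 2.56-fold higher in GFP than in MHC (95% interval 2.45 to 2.68), but it is overlapped by Copa, which has more reads, and is uncertain. Adam10, the protease that makes the first cut after ligand binding, was 2.13-fold higher in GFP than in MHC (95% interval 2.04 to 2.23) and 2.01-fold higher than in NEG (95% interval 1.92 to 2.11). The latter, at a log2(value + 1) ratio of 1.009, was just past the size rule. Furin, which processes the receptors on their way to the surface, had 4170 in GFP cells, 7740 in MHC cells and 6312 in NEG cells. It was 1.86-fold lower in GFP than in MHC (95% interval 1.79 to 1.93) and 1.51-fold lower than in NEG, within 2-fold by the rule.

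Of 7 counted glycosylation genes other than Lfng, 0 passed 2-fold between GFP and MHC, and 1, Rfng, was lower in GFP than in NEG. Eogt, an O-GlcNAc transferase of the receptors, was 1.93-fold lower in GFP than in MHC and the O-glucosyltransferase gene Poglut1 1.91-fold higher, both within 2-fold by the rule. All 4 ubiquitin ligase genes of the ligands lay within 2-fold in each comparison. Mib1, the main ligase for ligand uptake, had 4108 in GFP cells, 3838 in MHC cells and 3811 in NEG cells, while Mib2 and Neurl1b were 1.45-fold and 1.55-fold lower in GFP than in MHC.

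Of the 8 inhibitor and turnover genes, 2 were higher and 1 was lower in GFP than in MHC, and 3 were higher and 1 lower than in NEG. Among those higher than in NEG, Numb and Dtx2 were just past the size rule, both at a log2(value + 1) ratio of 1.03. The Deltex genes, regulators of receptor traffic, were split. Dtx1 had 11.0 in GFP cells, 165 in MHC cells and 46.3 in NEG cells, 15.1-fold lower in GFP than in MHC (95% interval 8.39 to 29.7). Dtx4 had 2075 in GFP cells, 547 in MHC cells and 555 in NEG cells, 3.79-fold higher in GFP than in MHC (95% interval 3.45 to 4.17). Numb, which inhibits Notch by driving receptor uptake, was 2.09-fold higher in GFP than in MHC (95% interval 1.94 to 2.26). Its paralogue Numbl differed in the other direction, at 2441 in GFP cells, 4576 in MHC cells and 3667 in NEG cells, 1.87-fold lower in GFP than in MHC (95% interval 1.79 to 1.97) and within 2-fold by the rule, and is uncertain because of an overlapping gene. Dtx1 was also the pathway gene past 2-fold upwards between MHC and NEG, at 3.56-fold higher in MHC (95% interval 2.52 to 5.15).

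In the nucleus, Rbpj itself had a normalised count of 5703 in GFP cells, 5068 in MHC cells and 3504 in NEG cells and stayed within 2-fold. Of the 9 nuclear genes, 1 was higher in GFP than in MHC and 2 were higher than in NEG, with 0 lower in both. The coactivator gene Maml2 had 2992 in GFP cells, 789 in MHC cells and 917 in NEG cells, 3.79-fold higher in GFP than in MHC (95% interval 3.51 to 4.10). Its relative Maml3 was 1.91-fold higher in GFP than in MHC and 2.01-fold higher than in NEG (95% interval 1.80 to 2.24). The latter, at a log2(value + 1) ratio of 1.005, was just past the size rule.

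Of the 5 counted target genes, 4 were lower in GFP and 1 was higher, against MHC and against NEG alike. Hes1 had 44.8 in GFP cells, 889 in MHC cells and 1087 in NEG cells. Hey1 had 13.7 in GFP cells, 502 in MHC cells and 478 in NEG cells, and Hey2 had 20.1 in GFP cells, 56.7 in MHC cells and 105 in NEG cells. Both were low in GFP. Heyl had 5.48 in GFP cells, 37.5 in MHC cells and 256 in NEG cells, whereas the feedback inhibitor gene Nrarp had 40.2 in GFP cells, 10.1 in MHC cells and 4.52 in NEG cells. Hes5 had between 1 and 4 reads per library.

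Dlk1, a Delta-like protein without the usual receptor-binding domain and described as an inhibitor of Notch, had a normalised count of 73260 in GFP cells, 29565 in MHC cells and 31109 in NEG cells. It was 2.48-fold higher in GFP than in MHC (95% interval 2.44 to 2.51). Its relative Dlk2 had 12.8 in GFP cells, 229 in MHC cells and 200 in NEG cells, 17.9-fold lower in GFP than in MHC (95% interval 10.4 to 33.2), and is uncertain because the gene Abcc10 overlaps it with more reads. Nov (also called Ccn3), a matricellular protein reported to bind Notch1, was 2.95-fold lower in GFP than in MHC (95% interval 2.42 to 3.62). Over the list of 6, 1 gene was higher and 2 were lower in GFP in both comparisons.

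**Figure D4:**
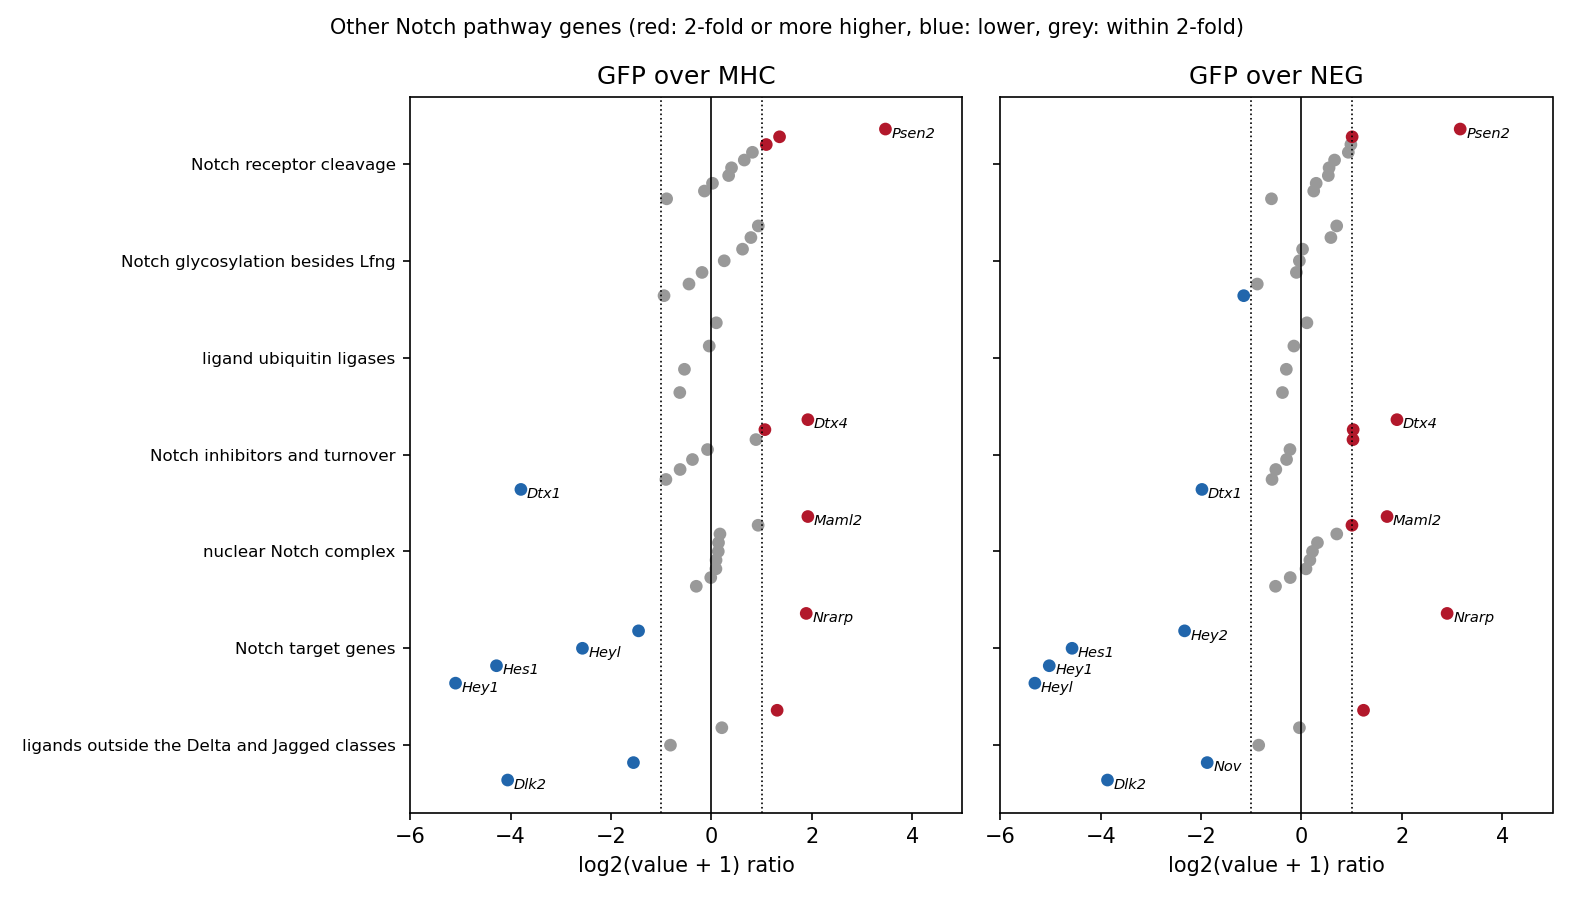
The log2(value + 1) ratio (x axis) of the other Notch pathway genes in 7 lists, for GFP over MHC and GFP over NEG, 1 point per gene whose larger value was at least 20, with dotted lines at 2-fold. Psen2 lies far right in the cleavage list (11.1-fold over MHC), and 4 of 5 target genes lie left of the 2-fold line in both panels.

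Marker lists place these values among the cell types present. Heart muscle genes summed to 14609 in GFP cells, 306085 in MHC cells and 9555 in NEG cells, with 0 of 9 at 0 in any library. Myh6, for which the mCherry reporter is named, alone had 4694 in GFP cells, 186924 in MHC cells and 3843 in NEG cells. Of the 9, 8 were lower in GFP than in MHC, while 4 were higher and 1 was lower than in NEG. Epicardial and mesothelial genes, 12 of 12 of them higher in GFP than in both others, summed to 185644 in GFP cells, 7546 in MHC cells and 7830 in NEG cells. Fibroblast and bone-forming genes summed to 1205726 in GFP cells, 5384804 in MHC cells and 5782694 in NEG cells, with 8 of 10 lower and 2 higher in GFP than in MHC. The higher genes were Pdgfra, at 35383 in GFP cells, 11080 in MHC cells and 9525 in NEG cells, and Thy1, at 23864 in GFP cells, 3303 in MHC cells and 2094 in NEG cells. Neural genes summed to 194 in GFP cells, 273 in MHC cells and 596 in NEG cells, and haematopoietic genes to 9014 in GFP cells, 1820 in MHC cells and 1487 in NEG cells. Of the 4 haematopoietic genes that could be counted, 3 were higher in GFP than in both others, 0 were lower and 1 lay within 2-fold. Cd14 held 7405 in GFP cells, 881 in MHC cells and 798 in NEG cells. Cd68 had 1220 in GFP cells, 503 in MHC cells and 252 in NEG cells. Adgre1 had 96.9 in GFP cells, 14.2 in MHC cells and 3.39 in NEG cells. Itgam, within 2-fold, had 262 in GFP cells, 400.1 in MHC cells and 427 in NEG cells. The pan-leukocyte gene Ptprc had 10.1 in GFP cells, 4.05 in MHC cells and 3.39 in NEG cells. The part of these cell types in the Notch gene values was not tested.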

How the data were processed

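RNA was measured in 3 libraries, 1 per sorted population, made with a TruSeq RNA kit and read as 50-base single reads, per the labels' protocols. The submitters' processing notes name FastQC 0.11.2, STAR 2.3.0e, bedtools 2.17.0, DESeq2 1.2.10 and the build mm10, with no role for each tool. The authors deposited a signal per gene that they call normalised counts. Its values behave as read counts divided by 1 size factor per library. Every value was a whole multiple of the library's smallest value, within a tolerance of 0.01 for 100% of values, and 1 read was worth 0.914 in GFP, 1.01 in MHC and 1.13 in NEG.

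Among 1016 genes inside an intron of another gene, the host had at least as many reads in 100%, and likewise for 578 on the opposite strand. This is what counting over whole gene spans on both strands gives. A gene is called uncertain where the whole value of an overlapping gene is 25% or more of its own. Reads of the overlapping gene outside the shared bases are included in that share. Ratios used log2(value + 1), folds are ratios of values, and intervals are exact conditional binomial (folds), exact Poisson (levels per kb) or Wilson (shares), at 95%. For 0 reads the limit is 3 reads. No molecular identifiers are given, so reads may be copies of 1 molecule. Each population being 1 library, a count model of the whole reads would have no error term: none was run, and 0 genes have a p-value. The computation was tested on simulated reads.

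The 10 members, 7 pathway lists and 8 marker lists were chosen with earlier results of these data known. All members were named, and of each pathway list chiefly the genes with the largest ratio between GFP and MHC, with some members named after their values were seen. Promoters are from RefSeq (GRCm38.p6), exons from GENCODE M21, and all 10 members matched both. Adgre1 stands in the table under an older symbol and was matched by its identifier. Python 3.11.15, SciPy 1.17.1 and pandas 2.3.3 were used.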

Additional observations from a re-analysis of the deposited data

How the results depend on the processing

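Of 237 recomputed log2 ratios of single members, 226 stayed within the counting interval of the reported value and 11 moved outside it. Of the called ratios, 0 changed sign. Part of the 226 could not move, because settings that only keep or drop genes leave the ratio of a kept gene as it was. Those settings were no filter, a higher minimum value and the removal of overlapped genes. The 226 therefore overstate how many ratios were put to a test and held. Scaling by the total over all genes moved the median of all genes by 0.17 for GFP over MHC and 0.16 for GFP over NEG and left Jag1 within 2-fold between GFP and NEG. No paired analysis was possible because each population has 1 library, so that the populations share fewer than 2 replicate numbers, and no replicate could be left out.

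Without genes overlapped by 25% or more of their reads over the libraries (Notch3 and Dll1 among the members), the member median for GFP over MHC was −0.17, with 2 members lower, and 3 were lower for GFP over NEG. At a minimum of 100, 2 members were lower for GFP over MHC and 1 for MHC over NEG. A pseudocount of 10 left 1 member lower for MHC over NEG, and 1 was higher there with a pseudocount of 0.1, with median-ratio scaling and with reads of overlapping genes taken away. The last, chosen after seeing the data, also gave 1 member higher for GFP over MHC, put Notch4 at a log2 ratio of −1.96 for MHC over NEG, and took Dll4 under a mean of 10, so that it was not counted. At 1.5-fold, 2 members were higher for GFP over MHC and 3 for MHC over NEG.

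For the other pathway genes, 1.5-fold gave 15 higher and 13 lower for GFP over MHC, 15 higher for GFP over NEG and 5 lower for MHC over NEG. A minimum of 100 left 4 lower for GFP over MHC, 5 lower for GFP over NEG and 0 higher and 0 lower for MHC over NEG. No filter gave 2 higher and 3 lower for MHC over NEG. Upper-quartile scaling gave 5 higher for GFP over NEG. It moved the median of all genes there by −0.075. Adam10, Numb, Dtx2 and Maml3 had been just past 2-fold, at log2 ratios of 1.009, 1.026, 1.029 and 1.005. Per kb of gene span, 43 of 45 pairs of members kept their order in GFP, 41 in MHC and 38 in NEG. Depth limits Notch4, Dll1, Dll3 and Dll4, which had 6 to 70 reads per library.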

Other observations

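The genes whose pattern over the 3 libraries was nearest to that of the receptor and the ligand with the highest mean were looked up among 12877 protein-coding genes with a mean of 100 or more. Likeness was the Euclidean distance of log2(value + 1), centred on each gene's mean over 3 libraries. For Notch2 they were Ggnbp1 (distance 0.00646), Commd4 (0.00751) and Psmc4 (0.00878). Psmc4 had a normalised count of 2889 in GFP cells, 1696 in MHC cells and 2224 in NEG cells. For Jag1 they were Fbxl22 (distance 0.00739), Unc13a (0.0170) and Pan2 (0.0263). With 3 points per gene, likeness describes these libraries only.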
